A study of Mus musculus with 18 samples.

Results

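The Hox genes of the 4 mouse clusters were followed across 5 sorted cell populations, as genes whose symbol on the array is Hoxa, Hoxb, Hoxc or Hoxd followed only by a number. Of the 22180 genes that a probe set names alone, 36 met this rule, with 9 in Hoxa, 10 in Hoxb, 9 in Hoxc and 8 in Hoxd. Hoxa11 and Hoxd4 were named only by probe sets that list several genes, so these genes were not analysed here. Hoxb5 had more than 1 probe set and took the one with the highest mean over the 18 arrays.

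Hox proteins are homeodomain transcription factors that give cells their position along the body axis. Within a cluster the genes lie in paralog order, and genes at the low-numbered 3' end come on earlier and reach further towards the head than those at the high-numbered 5' end. Low paralogs pattern the hindbrain, pharyngeal arches and neck, middle ones the trunk, and the highest ones the lower trunk, limbs and tail, and human fibroblasts keep a Hox pattern of their body site in adult life.

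Each array held RNA of sorted cells, and values are log2 intensities. Every mouse carried aP2-Cre, in which the promoter of Fabp4 drives the recombinase, and a tdTomato reporter, so Tomato reports past or present activity of that promoter and not a cell type. Tumors came from aP2-Cre/+;tdTomato/+/;SmoM2/+ mice of strain BJ;SJL;B6.129, in which SmoM2 is an active form of the hedgehog transducer Smoothened. They were taken at postnatal day 48 (repeats 1 to 3) or day 38 (repeat 4) and gave Tom+/Pecam1+, Tom+/Pecam1- and Tom-/Pecam1- cells (n = 4 arrays each). Normal sternocleidomastoid muscle, a neck muscle, of aP2-Cre/+;tdTomato mice of strain B6;SJL at day 21 gave Tom+ and Tom- cells (n = 3 arrays each), which the labels do not describe as sorted on Pecam1. The labels give no body site for the tumors. The groups of both tissues therefore differ in tissue, genotype, strain and age at once, and these cannot be told apart. In sorted mixtures, fewer cells of a type and less RNA per cell cannot be told apart either.

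Array medians were 5.410 to 5.438 in tumor and 5.041 to 5.105 in muscle, so tumor was compared with muscle on values minus the median of each array, and populations of 1 tissue on the values as deposited. The 6 endothelial markers (Pecam1, Cdh5, Kdr, Tie1, Tek and Esam) had a summed level, as log2 of the summed intensities, of 13.4 to 14.2 in tumor Tom+/Pecam1+ cells, 9.19 to 9.59 in tumor Tom+/Pecam1- cells and 8.76 to 9.41 in tumor Tom-/Pecam1- cells. It was 13.6 to 13.7 in muscle Tom+ cells and 10.3 to 10.6 in muscle Tom- cells. Salivary gland markers, which muscle should lack, summed to 7.0 to 7.22 over the tumor arrays, against 7.25 to 8.13 in muscle Tom+ cells and 7.23 to 9.79 in muscle Tom- cells. This rested mainly on Amy1, with means of 6.25 and 7.29 in muscle Tom+ and Tom- cells, against 3.55 to 4.06 in the tumor populations. The means of Aqp5 were 5.45 and 5.37 against 5.61 to 5.73. Bhlha15 stood at 5.48 and 5.35 against 5.36 to 5.69, and Muc19 at 4.78 and 4.39 against 4.26 to 4.41. Prol1 was dim.

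Promoters of Hoxd8, Hoxa2, Hoxb4 and Hoxa5 are shown because these genes had the smallest adjusted p of all members in the comparisons within a tissue. They run from 250 bases before to 50 bases after the start of the gene and come from RefSeq (GRCm38.p6), which does not have to be the build behind the array. Capitals mark a match to the retinoid half-site AGGTCA on either strand in Hoxd8, Hoxb4 and Hoxa5, and to the Pbx-Hox composite TGATNNAT on either strand in Hoxa2.
Hoxd8 (chr2:74704365-74704664, plus strand): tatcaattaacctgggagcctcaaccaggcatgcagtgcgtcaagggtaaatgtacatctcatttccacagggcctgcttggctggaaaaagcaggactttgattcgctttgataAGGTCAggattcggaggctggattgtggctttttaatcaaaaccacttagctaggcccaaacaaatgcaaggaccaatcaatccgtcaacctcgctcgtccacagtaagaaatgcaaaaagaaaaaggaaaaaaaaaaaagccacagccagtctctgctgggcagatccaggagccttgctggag
Hoxa2 (chr6:52164782-52165081, minus strand): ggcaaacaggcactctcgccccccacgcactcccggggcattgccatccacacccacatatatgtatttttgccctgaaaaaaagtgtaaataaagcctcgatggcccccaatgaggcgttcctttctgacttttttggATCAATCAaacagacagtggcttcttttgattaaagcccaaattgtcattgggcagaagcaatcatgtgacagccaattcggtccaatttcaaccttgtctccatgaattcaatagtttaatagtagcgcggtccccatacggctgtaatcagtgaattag
Hoxb4 (chr11:96318017-96318316, plus strand): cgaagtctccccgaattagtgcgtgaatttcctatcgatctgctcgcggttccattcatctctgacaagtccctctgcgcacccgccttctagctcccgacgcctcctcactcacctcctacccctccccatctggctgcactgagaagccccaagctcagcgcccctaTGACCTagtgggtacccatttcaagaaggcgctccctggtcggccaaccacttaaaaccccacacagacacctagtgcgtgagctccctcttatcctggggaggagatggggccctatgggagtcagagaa
Hoxa5 (chr6:52204538-52204837, minus strand): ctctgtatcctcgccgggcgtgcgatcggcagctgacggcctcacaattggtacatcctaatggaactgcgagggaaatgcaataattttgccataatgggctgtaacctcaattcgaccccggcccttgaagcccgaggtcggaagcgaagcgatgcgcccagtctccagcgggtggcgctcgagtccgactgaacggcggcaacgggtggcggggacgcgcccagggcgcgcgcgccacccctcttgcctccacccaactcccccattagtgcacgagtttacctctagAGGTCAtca
The retinoid half-site stood in 6 of the 22 RefSeq promoters of 20 member genes (Hoxa5, Hoxb4, Hoxc4, Hoxd3, Hoxd8 and Hoxd10) and in 16.26% of all 32851 promoters of the same length. The Pbx-Hox composite stood in 4 (Hoxa2, Hoxb1, Hoxb8 and Hoxd11) and in 8.85% of all promoters. The homeodomain core TAATTA stood in 2, both of Hoxd11, and in 5.29% of all, and the Gli core GACCACCC in 0 and in 0.81% of all. A match describes letters and not a bound site. Member promoters had a median GC content of 58.7%, against 52.7% over all promoters.

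Many Hox genes were dim. A gene was tested when at least 3 of the 18 arrays read it above the 40th percentile of all probe sets on the same array, named or not. By this rule 20 members were tested and 16 were dim, so 44.4% of the members were dim, against 27.8% of all genes. Of the dim members, 15 exceeded that percentile on 0 of 18 arrays. A dim reading can come from a poorly responding probe set as well as from little RNA, and levels of different probe sets are not set against each other here.

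Detection differed by paralog number. In paralog groups 1 to 5, 11 of 13 members were tested, against 3 of 8 in groups 6 to 8 and 6 of 15 in groups 9 to 13. By cluster, 6 of 9 Hoxa, 6 of 10 Hoxb, 3 of 9 Hoxc and 5 of 8 Hoxd members were tested. The dim members were Hoxa9, Hoxa10 and Hoxa13, Hoxb6, Hoxb7, Hoxb8 and Hoxb13, Hoxc4, Hoxc5, Hoxc6, Hoxc8, Hoxc11 and Hoxc13, and Hoxd9, Hoxd11 and Hoxd13.

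Only 7 members lay above the percentile on all 18 arrays, namely Hoxa2, Hoxa6, Hoxb3, Hoxb4, Hoxb5, Hoxd8 and Hoxd10, which is 19.4% of the members against 54.05% of all genes. In muscle Tom+ cells the detected set was the unbroken run Hoxa2 to Hoxa7 of the measured Hoxa genes, Hoxb1 to Hoxb5, and Hoxd1, Hoxd3, Hoxd8 and Hoxd10, each above the percentile on 3 of 3 arrays, and 0 of 9 Hoxc genes. In each tumor population 4 of 4 arrays read Hoxa2, Hoxa6, Hoxb3, Hoxb4, Hoxb5, Hoxc9, Hoxd8, Hoxd10 and Hoxd12 above it. The grid of detection by cluster and paralog number shows both sets.

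**Figure D1:**
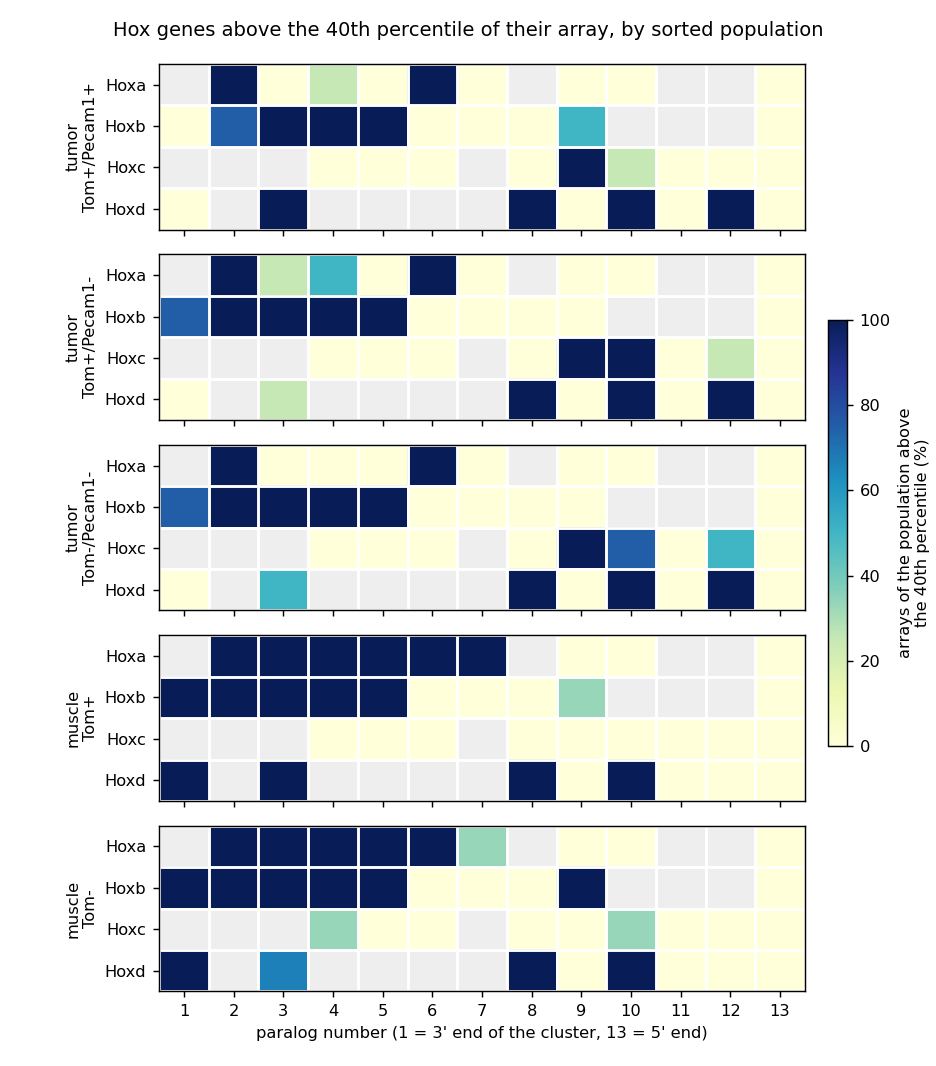
Share of the arrays of each sorted population (in percent, colour) that read each Hox gene above the 40th percentile of its array, by cluster (rows) and paralog number (columns), with grey cells for genes that do not exist or were not analysed. Of paralog groups 1 to 5, 11 of 13 members were tested, against 6 of 15 in groups 9 to 13.

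Of the 20 tested members, 11 passed the filter in both tissues (Hoxa2, Hoxa4, Hoxa6, Hoxb1, Hoxb2, Hoxb3, Hoxb4, Hoxb5, Hoxd3, Hoxd8 and Hoxd10). Another 5 passed in muscle alone (Hoxa3, Hoxa5, Hoxa7, Hoxb9 and Hoxd1) and 4 in tumor alone (Hoxc9, Hoxc10, Hoxc12 and Hoxd12). The filter chose these 9 by the tissue in which they read higher against the percentile, so their tissue differences are given as values and not counted as support.

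Tumor endothelial cells were compared first with the marked tumor cells that lack Pecam1. Hoxd8, a trunk-level paralog, was the member that separated these populations most. It read 7.95, 7.43, 7.42 and 7.41 in tumor Tom+/Pecam1+ cells, 5.83, 6.03, 6.40 and 5.90 in tumor Tom+/Pecam1- cells, and 6.71, 7.02, 6.66 and 7.17 in tumor Tom-/Pecam1- cells. The 3 populations did not overlap, with the endothelial one highest and the marked Pecam1-negative one lowest. Variation between tumors is missing from the deposited tumor values, so SDs and overlaps of tumor arrays, here and below, tend to be too small. Hoxd8 rose by 1.51 in tumor Tom+/Pecam1+ over Tom+/Pecam1- cells (7.55 ± 0.26 against 6.04 ± 0.26, SD, n = 4 each, 2.86-fold, adjusted p = 1.67e-07).

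Smaller increases in the same comparison were found for other genes. Hoxd3, which promotes the angiogenic state of human endothelial cells, read 4.91, 4.98, 5.0 and 5.18 in tumor Tom+/Pecam1+ cells and 4.82, 4.66, 4.77 and 4.48 in tumor Tom+/Pecam1- cells. Hoxa6, a thoracic paralog, read 5.94, 5.79, 5.96 and 5.94 in tumor Tom+/Pecam1+ cells and 5.59, 5.73, 5.51 and 5.66 in tumor Tom+/Pecam1- cells. Neither gene overlapped between the populations, with Hoxd3 higher by 0.33 (adjusted p = 0.00505) and Hoxa6 by 0.29 (adjusted p = 0.00983).

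Hoxb5, which helps place the forelimb in the mouse, read 5.46, 5.45, 5.71 and 5.37 in tumor Tom+/Pecam1+ cells and 5.28, 5.27, 5.13 and 5.34 in tumor Tom+/Pecam1- cells, a rise of 0.24 without overlap (adjusted p = 0.0238). Hoxb9, a rib-patterning paralog, rose by 0.32 (adjusted p = 0.0438) and Hoxb3, a hindbrain paralog, fell by 0.48 (adjusted p = 0.0486), both with overlapping values. The members thus had 5 higher and 1 lower of 20 tested, while 44.6% of all 16011 tested genes passed, 21% higher and 23.6% lower. Their median difference was 0.02, against 0.01 over all tested genes.

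With the repeat number as a block, Hoxd8 and Hoxd3 kept their calls (adjusted p = 2.83e-05 and 0.0298) and the other 4 lost them (adjusted p = 0.0544 to 0.12). The deposited tumor repeats have equal means, and only the blocked fit allows for this, so the calls of those 4 are weak. In a fit of all genes without the filter, dim Hoxd9 was higher by 0.65 in tumor Tom+/Pecam1+ cells (4.63 ± 0.06 against 3.98 ± 0.09, adjusted p = 0.000201, no overlap) and dim Hoxb7 by 0.23 (adjusted p = 0.0418), where 11.7% of all 6169 dim genes passed. All 6 endothelial markers were higher in the tumor Tom+/Pecam1+ cells, all 5 fibroblast and all 5 myogenic markers lower, and their part in the Hox differences was not tested.

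Against the unmarked tumor cells, the endothelial population again had more Hoxd8. Hoxd8 rose by 0.67 in tumor Tom+/Pecam1+ over Tom-/Pecam1- cells (7.55 ± 0.26 against 6.89 ± 0.24, adjusted p = 0.00136), without overlap. Hoxa2, the selector gene of the second pharyngeal arch, read 5.64, 5.59, 5.76 and 5.36 in tumor Tom+/Pecam1+ cells, 5.50, 5.80, 5.68 and 6.01 in tumor Tom+/Pecam1- cells, and 5.34, 5.09, 5.03 and 5.10 in tumor Tom-/Pecam1- cells. Both marked populations lay above the unmarked one on every array, and they overlapped each other.

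Hoxa2 rose by 0.45 in tumor Tom+/Pecam1+ over Tom-/Pecam1- cells (5.59 ± 0.17 against 5.14 ± 0.13, adjusted p = 0.0043). Hoxa6 rose by 0.25 (5.91 ± 0.08 against 5.66 ± 0.06, adjusted p = 0.0223), without overlap. Hoxa3, needed for thymus and parathyroid, read 4.79, 4.43, 4.71 and 4.46 in tumor Tom+/Pecam1+ cells and 4.44, 4.04, 4.07 and 4.34 in tumor Tom-/Pecam1- cells, and rose by 0.37 with overlap (adjusted p = 0.0372), though 0 of 4 arrays of either population read it above the percentile. The count was 4 higher and 0 lower of 20, where 41.7% of all tested genes passed, 20.5% higher and 21.2% lower, and the median difference was 0.04 over the members and 0.02 over all tested genes.

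Blocking on the repeat number took the calls of Hoxa3 and Hoxa6 (adjusted p = 0.108 and 0.0922). Leaving out tumor Tom+/Pecam1+ repeat 1, the array with the highest Hoxd8, left the calls of Hoxd8 and Hoxa2 and took those of Hoxa3 and Hoxa6. Dim Hoxd9 and Hoxb6 were higher by 0.39 and 0.29 in the fit without the filter (adjusted p = 0.0141 and 0.0302), where 11.1% of dim genes passed. All 6 endothelial markers were higher and all 5 leukocyte, 5 fibroblast, 4 tenocyte and 5 myogenic markers lower in the tumor Tom+/Pecam1+ cells, and their part was not tested.

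Among the Pecam1-negative tumor cells, marked and unmarked cells differed in Hoxd8 and Hoxa2, in opposite directions. Hoxd8 fell by 0.85 in tumor Tom+/Pecam1- relative to Tom-/Pecam1- cells (6.04 ± 0.26 against 6.89 ± 0.24, adjusted p = 0.000495). Hoxa2 rose by 0.60 (5.74 ± 0.21 against 5.14 ± 0.13, adjusted p = 0.000979). Neither overlapped, and both kept their calls with the block (adjusted p = 0.00796 and 0.0119). These were 1 higher and 1 lower of 20 members, a median of -0.0034 against 0.03 over all tested genes, where 25.4% of all tested genes passed, 13.4% higher and 12% lower. All 5 leukocyte markers were lower and all 5 myogenic markers higher in the Tom+/Pecam1- cells, with summed leukocyte levels of 9.71 to 10.2 against 11.4 to 12.4 in Tom-/Pecam1- cells. Their part was not tested.

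In normal neck muscle, where the comparison asks what sets the Cre-marked cells apart, the members that passed were all higher in the marked cells. Hoxb4, known for expanding blood stem cells when overexpressed, read 6.96, 6.53 and 6.54 in muscle Tom+ cells and 5.99, 5.92 and 5.44 in muscle Tom- cells. Hoxa5, a gene of the neck and upper thoracic skeleton and the lung, read 5.89, 5.65 and 6.06 in muscle Tom+ cells and 4.92, 4.60 and 5.31 in muscle Tom- cells. Hoxd8 read 7.37, 7.62 and 7.45 in muscle Tom+ cells and 6.72, 6.66 and 6.74 in muscle Tom- cells. In each of these 3 genes the marked cells were higher on every array.

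Hoxb4 rose by 0.89 in muscle Tom+ over Tom- cells (6.67 ± 0.25 against 5.78 ± 0.30, SD, n = 3 each, 1.86-fold, adjusted p = 0.000112). Hoxa5 rose by 0.92 (5.87 ± 0.21 against 4.94 ± 0.35, adjusted p = 0.000533) and Hoxd8 by 0.77 (7.48 ± 0.12 against 6.71 ± 0.04, adjusted p = 0.0014). Hoxb5 read 5.45, 5.27 and 5.34 in muscle Tom+ cells and 5.06, 5.13 and 5.05 in muscle Tom- cells, and rose by 0.27 (adjusted p = 0.0311). Hoxa2 rose by 0.35 (7.52 ± 0.13 against 7.17 ± 0.10, adjusted p = 0.045) without overlap, and Hoxd12, a gene of the digits, by 0.29 with overlap (adjusted p = 0.04), though 0 of 6 muscle arrays read Hoxd12 above the percentile.

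These were 6 higher and 0 lower of 20 members, where 39.7% of all tested genes passed, 19.1% higher and 20.5% lower. The median difference of the members was 0.23, against -0.0022 over all tested genes. With the repeat number as a block, Hoxb4, Hoxa5 and Hoxd8 kept their calls and the others lost them (adjusted p = 0.113 to 0.122). Hoxa2, Hoxb5 and Hoxd12 also lost theirs in a fit of only the muscle arrays. Without muscle Tom- repeat 3, the lowest array for Hoxb4, the calls of Hoxb4, Hoxa5 and Hoxd8 were left and those of Hoxa2, Hoxb5 and Hoxd12 were lost. Without muscle repeats 1 and 2 of both populations, which leaves 1 array each whose spread is taken from the other groups, Hoxa5 and Hoxd8 lost their calls (adjusted p = 0.0733 and 0.153). All 6 endothelial markers were higher and all 5 fibroblast, 4 tenocyte and 5 myogenic markers lower in the muscle Tom+ cells. Their part was not tested.

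**Figure D2:**
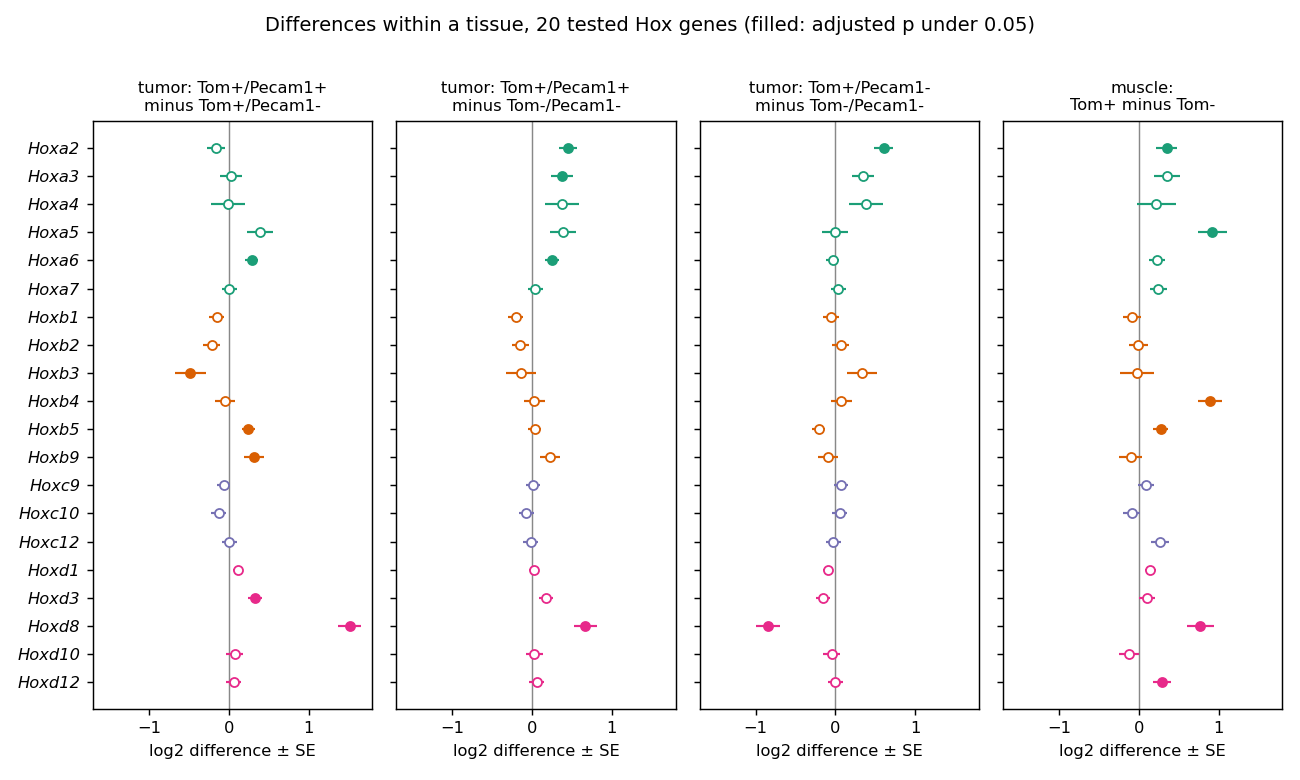
Log2 differences with standard errors (x axis) of the 20 tested Hox genes (rows) for the 4 comparisons within a tissue, coloured by cluster and filled where the adjusted p was under 0.05. Hoxd8 lies at 1.51, 0.67, -0.85 and 0.77 from left to right, the widest span of the genes drawn.

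The second Hoxb5 probe set went the same way in muscle, with means of 5.50 in Tom+ and 5.02 in Tom- cells. In tumor it stood at 5.52 in Tom+/Pecam1+, 5.13 in Tom+/Pecam1- and 5.22 in Tom-/Pecam1- cells, against 5.50, 5.25 and 5.47 for the probe set used. The probe sets therefore differ on the Tom-/Pecam1- cells.

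The marked endothelial-rich cells of both tissues stood against the unmarked cells in the same direction for Hoxd8, at 0.67 in tumor Tom+/Pecam1+ over Tom-/Pecam1- cells and 0.77 in muscle Tom+ over Tom- cells. A test of the difference between these contrasts, tumor minus muscle, gave 1 call among the 20 members, where 17.2% of all tested genes passed. Hoxb4 differed by -0.87 (SE 0.20, adjusted p = 0.00599). In tumor it read 5.45, 5.47, 5.74 and 5.52 in Tom+/Pecam1+ cells, 5.53, 5.78, 5.43 and 5.63 in Tom+/Pecam1- cells, and 5.67, 5.41, 5.48 and 5.50 in Tom-/Pecam1- cells. All tumor populations overlapped for Hoxb4, unlike those of muscle.

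Among members read in both tissues, the largest difference of the comparisons made was a decrease of Hoxa2 in tumor relative to muscle. Other low paralogs read in both tissues also fell, but by less than the 1.51 of Hoxd8 within tumor. On values minus the array median, Hoxa2 stood at 0.22, 0.16, 0.33 and -0.08 in tumor Tom+/Pecam1+ cells, 0.09, 0.38, 0.26 and 0.58 in tumor Tom+/Pecam1- cells and -0.09, -0.33, -0.39 and -0.31 in tumor Tom-/Pecam1- cells, against 2.56, 2.42 and 2.35 in muscle Tom+ cells and 2.02, 2.18 and 2.07 in muscle Tom- cells. The tumor arrays lay far below the muscle arrays without overlap. Hoxa2 fell by 2.29 in tumor Tom+/Pecam1+ relative to muscle Tom+ cells (0.16 ± 0.17 against 2.45 ± 0.10, adjusted p = 1.68e-09). Relative to muscle Tom- cells it fell by 1.76 in tumor Tom+/Pecam1- cells (adjusted p = 7.05e-09) and by 2.37 in tumor Tom-/Pecam1- cells (adjusted p = 5.43e-10).

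Hoxb4 stood at 0.04, 0.04, 0.31 and 0.08 in tumor Tom+/Pecam1+ cells, against 1.86, 1.44 and 1.50 in muscle Tom+ cells on the same scale. It fell by 1.48 between these marked populations (adjusted p = 5.97e-07), without overlap. Relative to muscle Tom- cells, at 0.90, 0.81 and 0.39, it fell by 0.52 in tumor Tom+/Pecam1- cells (adjusted p = 0.00417) and by 0.60 in tumor Tom-/Pecam1- cells (adjusted p = 0.00142). Both calls against muscle Tom- cells were lost on the values as deposited.

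The decreases covered Hoxb2, of the facial nerve segment of the hindbrain, and Hoxa4, a cervical paralog, in all 3 comparisons. In tumor, 3 of 12 arrays read Hoxa4 above the 40th percentile, against 6 of 6 in muscle. Hoxa4 fell by 1.22 in tumor Tom+/Pecam1+ relative to muscle Tom+ cells (adjusted p = 0.0008), and relative to muscle Tom- cells by 0.97 in tumor Tom+/Pecam1- cells (adjusted p = 0.00277) and by 1.36 in tumor Tom-/Pecam1- cells (adjusted p = 0.000161). Hoxb2 fell by 0.67, 0.44 and 0.51 in the same order (adjusted p = 0.000325, 0.00516 and 0.00162), and its calls against muscle Tom- cells were lost on the values as deposited.

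Hoxb1, the identity gene of a hindbrain segment, fell by 0.36 in tumor Tom+/Pecam1+ relative to muscle Tom+ cells (adjusted p = 0.0132) and by 0.27 in tumor Tom+/Pecam1- relative to muscle Tom- cells (adjusted p = 0.0402). On the values as deposited, the second of these stood at 0.06 (adjusted p = 0.614). Hoxb3 fell by 0.65 in tumor Tom+/Pecam1+ relative to muscle Tom+ cells (adjusted p = 0.0191) and, with overlap, by 0.52 in tumor Tom-/Pecam1- relative to muscle Tom- cells (adjusted p = 0.0434). Both Hoxb1 calls and both Hoxb3 calls were lost on the values as deposited. Blocking on the repeat number took the call of Hoxb1 against muscle Tom- cells (adjusted p = 0.0927) and of Hoxb3 against the same cells (adjusted p = 0.0846). Against muscle this block joins tumor and muscle arrays of equal number, which are separate samples, so it removes no known shared source. Hoxb5 and Hoxd3 did not pass in any of the 3 comparisons on centred values, with Hoxd3 at 0.01 in tumor Tom+/Pecam1+ against muscle Tom+ cells (adjusted p = 0.971).

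Of the 3 genes further along the clusters that were read in both tissues, Hoxd10 and Hoxa6 were higher in tumor in all 3 comparisons and Hoxd8 was lower in 1. Hoxd10, a lumbar and hindlimb gene, stood at 0.75, 0.69, 1.03 and 0.87 in tumor Tom+/Pecam1+ cells, 0.78, 0.94, 0.64 and 0.71 in tumor Tom+/Pecam1- cells and 0.89, 0.79, 0.75 and 0.82 in tumor Tom-/Pecam1- cells, against 0.14, 0.45 and 0.01 in muscle Tom+ cells and 0.42, 0.30 and 0.23 in muscle Tom- cells. Every tumor array lay above every muscle array. Hoxd10 rose by 0.63 in tumor Tom+/Pecam1+ over muscle Tom+ cells (adjusted p = 0.0004), and over muscle Tom- cells by 0.45 in tumor Tom+/Pecam1- cells (adjusted p = 0.00339) and by 0.50 in tumor Tom-/Pecam1- cells (adjusted p = 0.00159). Hoxa6 rose by 0.35, 0.31 and 0.35 in the same order (adjusted p = 0.00675, 0.00891 and 0.00451).

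Hoxd8 depended on the population. It differed by -0.28 in tumor Tom+/Pecam1+ against muscle Tom+ cells (adjusted p = 0.196) and by -0.16 in tumor Tom-/Pecam1- against muscle Tom- cells (adjusted p = 0.439), which did not pass. In tumor Tom+/Pecam1- relative to muscle Tom- cells it fell by 1.0 (0.62 ± 0.25 against 1.63 ± 0.07, adjusted p = 8.92e-05).

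**Figure D3:**
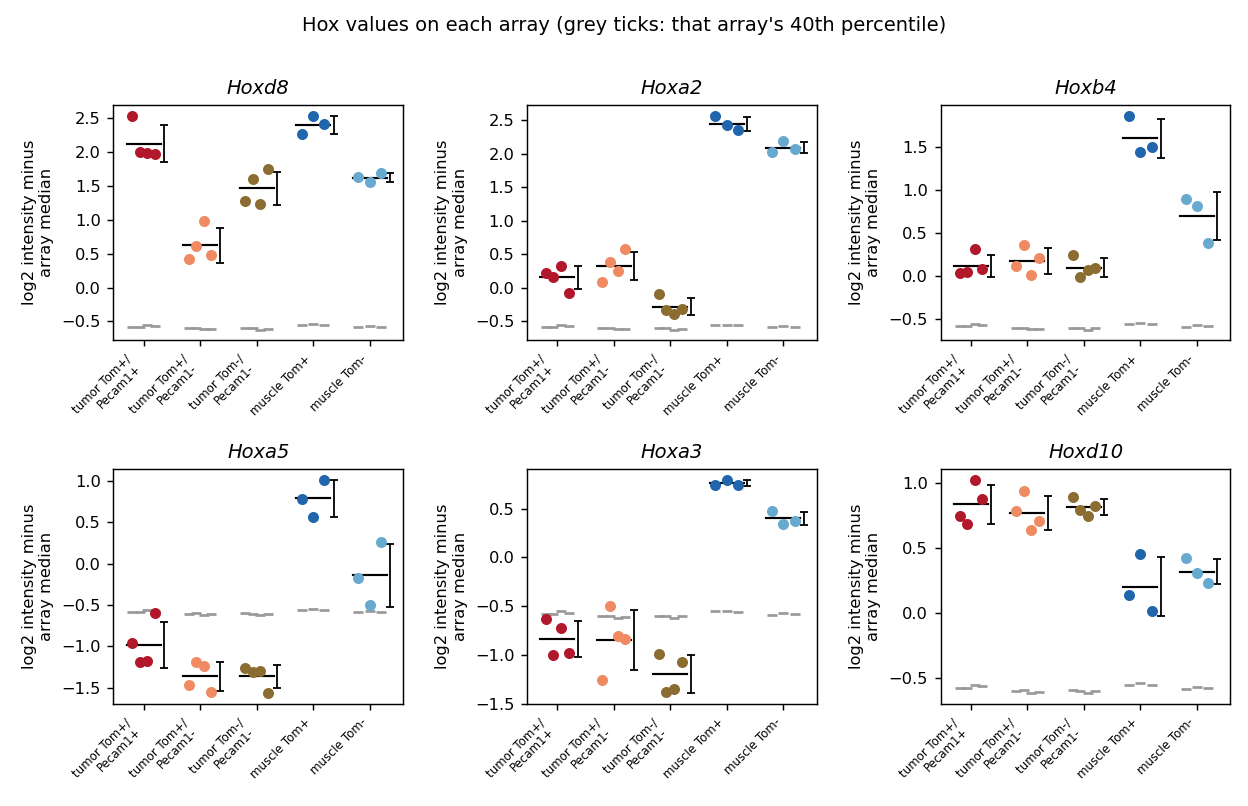
Log2 intensity minus the array median (y axis) of 6 Hox genes on each of the 18 arrays, by sorted population, with horizontal lines for means, bars for SD and grey ticks for the 40th percentile of each array. Hoxa2 lies at 2.02 to 2.56 in muscle and at -0.39 to 0.58 in tumor, while Hoxd10 lies higher on every tumor array than on any muscle array.

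Of the 8 members of paralog groups 1 to 5 read in both tissues, 6, 5 and 5 were lower and 0 higher in tumor Tom+/Pecam1+ against muscle Tom+, tumor Tom+/Pecam1- against muscle Tom-, and tumor Tom-/Pecam1- against muscle Tom- cells. Of groups 6 to 8, Hoxa6 was higher in each and Hoxd8 lower in 1, and of groups 9 to 13 Hoxd10 was higher in each. On the values as deposited the 8 low paralogs gave 4, 2 and 2 lower (Hoxa2 and Hoxa4 in each, with Hoxb2 and Hoxb4 in the first) and 1, 0 and 2 higher (Hoxd3 in the first and last, Hoxb5 in the last), while Hoxa6, Hoxd8 and Hoxd10 kept their calls. Over all tested genes 18.5%, 23% and 24.9% were lower on centred values, against 5.01%, 9.62% and 9.71% as deposited. The last 2 comparisons share their muscle Tom- arrays, so they do not add up as separate evidence.

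Over all 20 tested members the counts were 4 higher and 10 lower in tumor Tom+/Pecam1+ against muscle Tom+ cells, where 34.2% of all tested genes passed, 15.7% higher and 18.5% lower. Tumor Tom+/Pecam1- against muscle Tom- cells gave 5 higher and 11 lower, where 47.1% of all tested genes passed, 24.1% higher and 23% lower. Tumor Tom-/Pecam1- against muscle Tom- cells gave 5 higher and 9 lower, where 48.7% of all tested genes passed, 23.8% higher and 24.9% lower. The members' medians were -0.32, -0.34 and -0.27 in this order, against -0.03, 0.01 and -0.02 over all tested genes. Calls of the members that passed the filter in a single tissue are part of these counts, in a direction the filter favours.

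The scale decides part of the split. On the values as deposited, where tumor arrays stand 0.34 above muscle arrays in their medians, the same 3 comparisons gave 8 higher and 8 lower, 6 higher and 7 lower, and 8 higher and 6 lower. Of all tested genes 47.7%, 51.2% and 49.1% were higher on that scale. Of the members read in both tissues, Hoxa2 and Hoxa4 kept their lower calls on both scales in all 3.

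Members that passed the filter in muscle alone, which favours lower values in tumor, were led by Hoxa3 and Hoxd1. Hoxa3 stood at -0.63, -1.0, -0.73 and -0.98 in tumor Tom+/Pecam1+ cells, -1.25, -0.50, -0.81 and -0.83 in tumor Tom+/Pecam1- cells and -0.99, -1.38, -1.35 and -1.07 in tumor Tom-/Pecam1- cells, against 0.75, 0.80 and 0.74 in muscle Tom+ cells and 0.48, 0.34 and 0.37 in muscle Tom- cells. All but 1 tumor array lay under the 40th percentile for Hoxa3. It differed by -1.59, -1.25 and -1.59 in tumor Tom+/Pecam1+ against muscle Tom+, tumor Tom+/Pecam1- against muscle Tom-, and tumor Tom-/Pecam1- against muscle Tom- cells (adjusted p = 7.92e-07, 3.31e-06 and 2.66e-07).

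Hoxd1, which shapes pain-sensing neurons in the mouse, stood at -1.16, -1.13, -1.09 and -1.18 in tumor Tom+/Pecam1+ cells, -1.22, -1.23, -1.29 and -1.22 in tumor Tom+/Pecam1- cells and -1.13, -1.17, -1.16 and -1.15 in tumor Tom-/Pecam1- cells, against -0.34, -0.26 and -0.31 in muscle Tom+ cells and -0.51, -0.46 and -0.40 in muscle Tom- cells. It was above the percentile on every muscle array and on 0 tumor arrays. The differences were -0.84, -0.78 and -0.69 in the order just used (adjusted p = 1.97e-07, 1.06e-07 and 4.79e-07).

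Hoxa5 differed by -1.77, -1.22 and -1.22, and Hoxa7, a thoracic paralog, by -0.87, -0.62 and -0.65. Each of these passed, with adjusted p = 1.44e-06 to 2.63e-05 for Hoxa5 and 8.37e-06 to 0.000121 for Hoxa7. Hoxb9 lay above the percentile on 4 muscle and 2 tumor arrays. On centred values it passed only in tumor Tom+/Pecam1- against muscle Tom- cells, at -0.41 (adjusted p = 0.0203, and 0.0508 with the block that joins both tissues). As deposited, this difference was -0.08 (adjusted p = 0.639). On that scale Hoxb9 was instead higher by 0.35 in tumor Tom+/Pecam1+ over muscle Tom+ cells (adjusted p = 0.0377).

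Members that passed the filter in tumor alone were Hoxc9, Hoxc10, Hoxc12 and Hoxd12, all of paralog groups 9 to 13. Hoxc9, which sets thoracic motor neuron identity, stood at -0.53, -0.42, -0.32 and -0.45 in tumor Tom+/Pecam1+ cells, -0.14, -0.48, -0.44 and -0.37 in tumor Tom+/Pecam1- cells and -0.54, -0.32, -0.47 and -0.41 in tumor Tom-/Pecam1- cells, against -1.28, -1.35 and -1.12 in muscle Tom+ cells and -1.30, -1.40 and -1.35 in muscle Tom- cells. Tumor arrays were just above the 40th percentile and muscle arrays well under it. Hoxc9 differed by 0.82, 0.99 and 0.92 in tumor Tom+/Pecam1+ against muscle Tom+, tumor Tom+/Pecam1- against muscle Tom-, and tumor Tom-/Pecam1- against muscle Tom- cells (adjusted p = 7.23e-06, 3.08e-07 and 8.8e-07).

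Hoxd12, which is expressed in the posterior limb bud, differed by 0.49, 0.74 and 0.74 in the same order (adjusted p = 0.00147, 1.85e-05 and 1.9e-05). Hoxc12 differed by 0.24 (adjusted p = 0.0784), 0.52 (adjusted p = 0.000519) and 0.55 (adjusted p = 0.00036). Hoxc10, a lumbar gene, did not pass in any of the 3 on centred values (0.11, 0.17 and 0.11). As deposited it was higher in each, by 0.47, 0.50 and 0.45 (adjusted p = 0.00104, 0.000411 and 0.00113). Hoxc12 also passed in the first comparison on that scale (0.60, adjusted p = 0.000177).

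**Figure D4:**
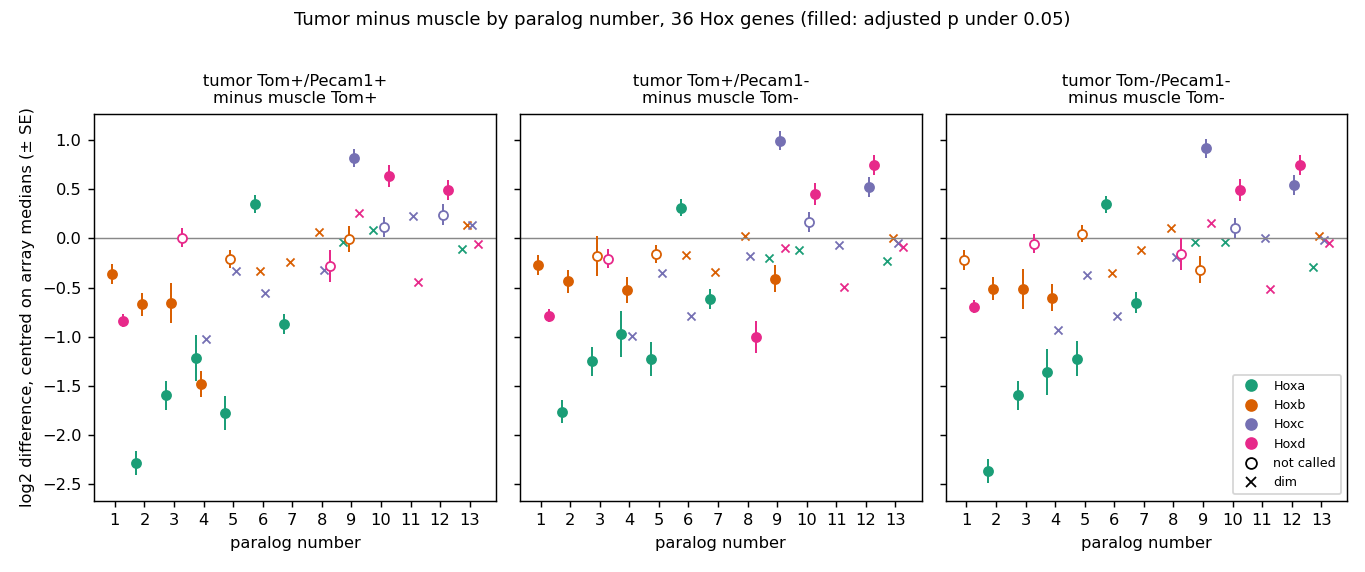
Log2 difference of tumor minus muscle on values centred on array medians (y axis, bars SE) against paralog number (x axis) for all 36 Hox genes, coloured by cluster, with filled points for adjusted p under 0.05, open points for tested genes that did not pass and crosses for dim genes. Hoxa2 is lowest in each panel at -2.29, -1.76 and -2.37. Called genes above 0 are Hoxa6 and Hoxd10, read in both tissues, and Hoxc9, Hoxc12 and Hoxd12, read in tumor alone. The filter favours the direction of those that passed it in tumor alone, and of those that passed it in muscle alone below 0. On the values as deposited Hoxc10 was also called higher in each panel, and Hoxd3, Hoxb5 and Hoxb9 in some.

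The dim members were set against muscle in a fit without the filter, beside the dim genes of the array as a whole. Of 16 dim members 7, 6 and 6 were called in tumor Tom+/Pecam1+ against muscle Tom+, tumor Tom+/Pecam1- against muscle Tom-, and tumor Tom-/Pecam1- against muscle Tom- cells, all lower. Of all 6169 dim genes 35.1%, 41.8% and 41.8% were called, 26%, 32.8% and 33% lower. The share of dim members called is thus near that of all dim genes. Hoxc4 had the greatest of these differences, at -1.03, -0.99 and -0.93, and Hoxc6 came next at -0.55, -0.79 and -0.79.

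Markers of the cells also moved between the tissues. Endothelial markers had 1 higher and 0 lower of 6 in tumor Tom+/Pecam1+ against muscle Tom+ cells, but 0 higher and 6 lower both in tumor Tom+/Pecam1- and in tumor Tom-/Pecam1- against muscle Tom- cells. Leukocyte markers had 1, 1 and 5 higher of 5 in these 3 comparisons, and salivary gland markers 2 lower of 4 in each. The salivary gland markers Amy1 and Muc19 were above the percentile on 0 tumor arrays, so the filter favours lower values of both in tumor. Myogenic markers had 0, 1 and 4 lower of 5 and 0 higher, and Schwann markers 1, 1 and 2 lower of 2. Fibroblast markers had 2 higher of 5 in the first comparison, then 2 and 1 lower, and tenocyte markers 1 higher of 4, then 2 lower, then 1 higher and 1 lower. Without muscle repeats 1 and 2, Hoxa2 and Hoxa4 kept their lower calls and Hoxd10 its higher calls in all 3 comparisons. In tumor Tom+/Pecam1+ against muscle Tom+ cells Hoxa6 then stood at 0.21 (adjusted p = 0.251), and Hoxb1, Hoxb3 and Hoxd12 also lost their calls. Against muscle Tom- cells Hoxb4 lost both its calls, and Hoxb1, Hoxb3 and Hoxb9 lost theirs. The part of other cell types in the tissue differences was not tested.

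Hox proteins bind DNA together with Pbx, Meis and Prep (Pknox) partners, and 8 such cofactor genes of 9 were tested. In muscle Tom+ over Tom- cells 1 was higher and 6 lower, in tumor Tom+/Pecam1+ over Tom+/Pecam1- cells 1 higher and 4 lower, and over Tom-/Pecam1- cells 1 higher and 4 lower. Of all tested genes 39.7%, 44.6% and 41.7% passed in this order. Pknox2 fell by 1.42, 2.33 and 1.24 in these 3 comparisons and Meis1 fell by 1.52, 1.64 and 1.50, with adjusted p = 4.71e-12 to 2.49e-08 for Pknox2 and 1.53e-06 to 2.4e-05 for Meis1. Tumor Tom+/Pecam1- over Tom-/Pecam1- cells had 2 higher and 0 lower, with Pknox2 at 1.09 and Pknox1 at 0.48, where 25.4% of all tested genes passed. The cofactor medians were -0.48, -0.36, -0.33 and 0.18 in these 4 comparisons.

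Against muscle, Meis2 rose by 1.75 in tumor Tom+/Pecam1+ over muscle Tom+ cells, where 1 cofactor was higher and 1 lower. Tumor Tom+/Pecam1- over muscle Tom- cells had 4 higher and 3 lower, led by Pknox2 at 1.19, and tumor Tom-/Pecam1- over muscle Tom- cells 3 higher and 3 lower, with Pknox1 at -0.83 and Meis2 at 0.87. The medians were 0.08, 0.41 and 0.08, where 34.2%, 47.1% and 48.7% of all tested genes passed.

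Chromatin regulators of the clusters, the Polycomb and Trithorax groups with Ctcf and the Cdx factors, had 19 tested genes of 22. In muscle Tom+ over Tom- cells 5 were higher and 2 lower, with the Polycomb methyltransferase Ezh2 at -1.08 and its relative Ezh1 at 0.84. In tumor Tom+/Pecam1+ cells Ezh2 fell by 0.72 relative to Tom+/Pecam1- cells and by 0.75 relative to Tom-/Pecam1- cells, with 3 higher and 6 lower, and 4 higher and 4 lower regulators. Tumor Tom+/Pecam1- over Tom-/Pecam1- cells had 2 higher and 3 lower, led by the Polycomb gene Phc2 at 0.73. Of all tested genes 39.7%, 44.6%, 41.7% and 25.4% passed in these comparisons, in the order given, so the shares of regulators called were near those of all genes. The regulator medians lay between -0.17 and 0.14 in the comparisons within and between the tissues.

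Against muscle the counts were 2 higher and 6 lower in tumor Tom+/Pecam1+ over muscle Tom+ cells, and 4 higher and 3 lower over muscle Tom- cells both in tumor Tom+/Pecam1- and in tumor Tom-/Pecam1- cells. The shares of all tested genes that passed were 34.2%, 47.1% and 48.7% in this order. Cdx2, a caudal activator of Hox genes in the embryo, differed by -0.71, -0.73 and -0.76 in this order, but 0 tumor arrays read it above the percentile, so the filter set this direction. The Polycomb reader Cbx7 rose by 0.69, 1.26 and 0.94.

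Retinoic acid switches on 3' Hox genes in the embryo, and 13 of 17 genes that make, break down or sense it were tested. In muscle Tom+ over Tom- cells 4 were higher and 3 lower: the retinal reductase Dhrs3 rose by 1.69, the retinoic acid hydroxylase Cyp26b1 by 2.36 and the receptor Rarg by 0.94, while the dehydrogenase Aldh1a1 fell by 2.81. In tumor Tom+/Pecam1+ cells 2 were higher and 5 lower than in Tom+/Pecam1- cells, with Dhrs3 at 1.36 and the dehydrogenase Aldh1a3 at -1.58. Relative to Tom-/Pecam1- cells 2 were higher and 7 lower, with Aldh1a1 at -1.92 and Rarg at 0.41. In these comparisons 39.7%, 44.6% and 41.7% of all tested genes passed.

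Tumor Tom+/Pecam1- over Tom-/Pecam1- cells had 3 higher and 3 lower, with Dhrs3 at -1.09 and Aldh1a3 at 1.03, where 25.4% of all tested genes passed. Against muscle the counts were 2 higher and 5 lower in tumor Tom+/Pecam1+ over muscle Tom+ cells, 6 higher and 3 lower in tumor Tom+/Pecam1- over muscle Tom- cells, and 5 higher and 2 lower in tumor Tom-/Pecam1- over muscle Tom- cells. The shares of all tested genes that passed were 34.2%, 47.1% and 48.7%. Aldh1a3 rose by 0.95, 2.50 and 1.46 in this order, and the receptor gene Rara by 0.77, 0.99 and 0.79. The retinoic acid receptor Rarb, itself a target of the pathway, fell by 1.47 in tumor Tom+/Pecam1- and by 1.34 in tumor Tom-/Pecam1- relative to muscle Tom- cells. Cyp26a1, a retinoic acid hydroxylase that is also a target, went the other way, at 0.89 and 1.62, but was above the percentile on 0 muscle arrays, so the filter set this direction. Aldh1a2, above it on 2 muscle and 8 tumor arrays, also passed through tumor. The list's medians ran from -0.55 in tumor Tom+/Pecam1+ over Tom-/Pecam1- cells to 0.51 in tumor Tom+/Pecam1- over muscle Tom- cells.

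Genes beside and inside the clusters had 9 tested of 21. The microRNA gene Mir615, which lies in the Hoxc cluster, ranged over 5.61 to 6.22 in tumor Tom+/Pecam1+ cells, 5.44 to 5.90 in tumor Tom+/Pecam1- cells and 5.44 to 5.85 in tumor Tom-/Pecam1- cells, against 3.48 to 4.02 in muscle Tom+ cells and 3.50 to 4.01 in muscle Tom- cells. Tumor and muscle arrays did not overlap, and the centred differences were 1.78, 1.59 and 1.57, but the gene was dim in muscle, so the filter set this direction. The array does not say which arm its probes read, so both mature arms are shown from RefSeq with the seed, bases 2 to 8, in capitals.
mmu-miR-615-5p: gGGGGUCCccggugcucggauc
mmu-miR-615-3p: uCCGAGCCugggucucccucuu
The noncoding Hoxaas3 of the Hoxa cluster rose by 0.55 in muscle Tom+ over Tom- cells and, read above the percentile on 2 of 12 tumor arrays, differed by -1.13, -0.58 and -0.76 in tumor Tom+/Pecam1+ relative to muscle Tom+, and in tumor Tom+/Pecam1- and Tom-/Pecam1- relative to muscle Tom- cells. Skap2, an adaptor gene beside the Hoxa cluster, rose by 1.83 in tumor Tom+/Pecam1+ over Tom+/Pecam1- cells and by 1.50 in muscle Tom+ over Tom- cells, and fell by 2.21 in tumor Tom+/Pecam1- relative to Tom-/Pecam1- cells. Of the 9 genes, 3 were higher and 1 lower in muscle Tom+ over Tom- cells (median -0.02), and 1 higher and 4 lower in tumor Tom+/Pecam1+ over muscle Tom+ cells (median -0.15). The counts were 2 higher and 5 lower over muscle Tom- cells both in tumor Tom+/Pecam1- (median -0.35) and in tumor Tom-/Pecam1- cells (median -0.40). In the order of these counts, 39.7%, 34.2%, 47.1% and 48.7% of all tested genes passed. Evx2, Hotair and Hoxaas3 were above the percentile on 4, 5 and 6 muscle arrays, against 0, 0 and 2 tumor arrays. The filter therefore favours lower values of these genes in tumor, as it favours higher values of Mir615, and the counts and medians against muscle include them.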

How the data were processed

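The authors deposited log2 intensities of 41345 probe sets on 18 arrays, and RMA and Partek are named per the submitters' processing notes, without versions. The array build is not given in the sources used here. Only the 23521 probe sets that name 1 gene were used, and 1814 with several symbols and 16010 without a symbol were not. A gene with several such probe sets was read from the one of highest mean. Testing covered 16011 genes read above the array's 40th percentile on 3 or more arrays, and 6169 counted as dim. Tests used limma 3.58.1 (R 4.3.3) with lmFit and eBayes, 1 mean per population over all 18 arrays, two-sided, with Benjamini-Hochberg adjustment over all tested genes in each comparison and a threshold of 0.05, and were tested on simulated data. Tumor was set against muscle on values minus array medians, populations of 1 tissue on deposited values. Alternatives changed the filter, normalization, centring, probe set summary, variance model, threshold and groups fitted, added the repeat number as a block, or left out arrays. In comparisons with muscle the block joined tumor and muscle arrays of equal number, though these are separate samples. Figures used matplotlib 3.10.9 with pandas 2.3.3 and Python 3.11.15.

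Members, gene lists and comparisons were chosen with earlier results of these data known. By rule, each comparison names with values the members past the threshold whose populations do not overlap, up to the 10 largest and 10 smallest differences. Per-array values are given in full for at most 4 members, those of smallest adjusted p. Members whose populations overlap and dim members go by name and count, and the cofactor and regulator lists by up to 4 genes. Values of some other members, and of the retinoic acid and neighbour lists, were added after their values were seen. The labels call the repeats biological but name no animals. P-values measure the spread between the deposited values, which in tumor lacks the variation between tumors.

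Repeat numbers pair the muscle arrays: deviations from population means over all probe sets correlated at 0.12 to 0.195 in the 3 same-numbered pairs and at -0.162 to -0.022 in others. Averaging the 3 tumor populations of a repeat gave the same value for all repeats, within 7.67e-05 at every probe set. Variation between tumors is therefore missing from the deposited values, and the same check is void in tumor (-0.666 to -0.282). The SDs, overlaps and p-values of tumor arrays tend to be too small.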

Additional observations from a re-analysis of the deposited data

Results flagged for a closer look

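Among 60 groups of 4 tumor arrays (20 tested members in 3 populations), 3 had an array far from its fellows, and chance alone marks about 1 group in 20. Hoxa6 stood at 5.79 in tumor Tom+/Pecam1+ repeat 2, while the others were at 5.94 to 5.96. Hoxb5 stood at 5.38 in tumor Tom-/Pecam1- repeat 3, while the others were at 5.48 to 5.50. Hoxd8 stood at 7.95 in tumor Tom+/Pecam1+ repeat 1, while the others were at 7.41 to 7.43. Without that array Hoxd8 was higher in tumor Tom+/Pecam1+ cells by 1.38 over Tom+/Pecam1- cells (limma adjusted p = 5.37e-07) and by 0.54 over Tom-/Pecam1- cells (limma adjusted p = 0.00574).

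Hoxb4 differed between the tissues in how the marked endothelial-rich cells stood against the unmarked cells, by -0.87 (tumor minus muscle, limma adjusted p = 0.00599). With each array left out in turn the adjusted p ran from 0.00478 to 0.0185.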

How the results depend on the processing

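Of 63 calls of a member, 39 stayed past the threshold under all alternatives that tested the member, except the stricter thresholds, and 14 under those too. Members removed by the 60th percentile filter were not counted as lost under it, so these counts are too high for all alternatives. Among 1155 alternative values 1 reversed: Hoxb1 in tumor Tom+/Pecam1- over muscle Tom- cells, at 0.063 on the values as deposited. In muscle Tom+ over Tom- cells the 6 calls became 3 with the 60th percentile filter, 10 with quantile normalization, 3 at an adjusted p of 0.01, 0 at 2-fold or more, 3 with the repeat number as a block, 3 without muscle repeats 1 and 2 and 3 to 7 with each array left out. In tumor Tom+/Pecam1- over Tom-/Pecam1- cells the 2 calls became 0 at 2-fold or more (2 to 3 with each array left out). In tumor Tom+/Pecam1+ over Tom+/Pecam1- cells the 6 became 1 with the 60th percentile filter, 3 in a fit of only these groups, 3 at an adjusted p of 0.01, 1 at 2-fold or more, 2 with the block, 3 without tumor repeat 4 and 4 to 7 with each array left out. In tumor Tom+/Pecam1+ over Tom-/Pecam1- cells the 4 became 2 at an adjusted p of 0.01, 0 at 2-fold or more, 2 with the block and 2 to 6 with each array left out. In tumor Tom+/Pecam1+ over muscle Tom+ cells the 14 became 5 with the 60th percentile filter and 5 at 2-fold or more (12 to 15 with each array left out). Over muscle Tom- cells the 16 of tumor Tom+/Pecam1- cells became 6 and 4 (14 to 15), and the 14 of tumor Tom-/Pecam1- cells 5 and 4 (13 to 14). The difference between tissues had 1 call, 2 with quantile normalization, 2 without tumor repeat 4, 2 without muscle Tom- repeat 3 or tumor Tom+/Pecam1+ repeat 4, 0 at 2-fold or more, and 1 to 2 with each array left out. The 60th percentile filter tests fewer genes and leaving arrays out uses fewer samples, and the cause of the other changes was not tested. The number of arrays and dim probe sets limit what can be seen, and 16 of 36 members were dim.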
